A study of Mus musculus with 13 samples.

Results

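The epidermal growth factor (EGF) receptor family was measured here as 10 genes in bulk RNA of mouse lung, out of 20270 genes in the deposited tables. The genes were chosen by symbol, with earlier results of these data known. They comprised 7 ligands (Areg, Ereg, Hbegf, Tgfa, Btc, Egf and Nrg1) and 3 receptors (Egfr, Erbb2 and Erbb3). All 10 were found and all 10 passed the filter on low counts. The study asked how deletion of the cannabinoid receptor CB1R, encoded by Cnr1, altered bleomycin-induced pulmonary fibrosis. The control group held 4 WT lungs (mice 3, 21, 24 and 26) that had no bleomycin, with sterile saline given as the study's vehicle. The WT bleomycin group held 5 lungs (mice 4, 2, 5, 4-B2 and 7) and the CB1R KO bleomycin group 4 lungs (mice 8, 9, 10 and 11), all taken 14 days after a single oropharyngeal dose of 1 U per kg. WT mice were male C57BL/6J mice aged 13 weeks. The Cnr1-/- mice were on the same background, with no age or sex given for them in the sources used here. There was no CB1R KO group without bleomycin, so the effect of genotype alone cannot be told apart from its effect on the response. RNA came from the lower right lobe, which holds all cell types of the lung, so fewer cells of a type and less RNA per cell cannot be told apart.

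Ligands of this family are made as membrane-anchored precursors and are released by metalloproteases of the ADAM family. EGF, TGF-α (Tgfa) and amphiregulin (Areg) bind the EGF receptor; HB-EGF (Hbegf), betacellulin (Btc) and epiregulin (Ereg) bind it and ErbB4 as well; neuregulin 1 (Nrg1) binds ErbB3 and ErbB4. ErbB2 has no known ligand and acts as a dimer partner, while ErbB3 has little kinase activity of its own and relies on its partner. Receptor dimers signal through RAS and ERK kinases, and in the lung the family is known for epithelial repair and for its link with fibrosis.

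Of the 13 libraries, 12 held between 14615904 and 16662580 estimated counts while the library of CB1R KO mouse 11 was the deepest at 53463884, or 3.33 times their median. The type II cell marker Sftpc was between 14306 and 29304 TPM in all lungs (transcript abundance scaled for gene length and depth). Cnr1, the targeted gene, was at 0.403 to 1.05 TPM in control, 0.848 to 1.85 TPM in WT bleomycin and 0.648 to 1.5 TPM in CB1R KO lungs, with no call between CB1R KO and WT bleomycin (log2 fold change -0.53 ± 0.28 (SE), edgeR adjusted p = 0.367). Which part of Cnr1 is missing in these mice is not given in the sources used here, so its level does not check the genotype. CB1R KO therefore stands for libraries labelled so throughout, including wherever a direction is given.

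Ereg, Areg and Btc are next to each other on mouse chromosome 5, in the order Epgn, Ereg, Areg and Btc with no other protein-coding gene between them in the RefSeq annotation of GRCm38.p6. The letters upstream of Areg and of Btc are shown because these neighbours responded differently to bleomycin. Those upstream of Ereg are not shown, since the promoter set used here had no entry for it. Each run holds the 250 bases before the RefSeq start site, Areg at chr5:91139349-91139598 on the plus strand and Btc at chr5:91402995-91403244 on the minus strand. Capitals mark the cAMP response element TGACGTCA, its half-site TGACG and the TATA box TATAAA, each on either strand.
Areg: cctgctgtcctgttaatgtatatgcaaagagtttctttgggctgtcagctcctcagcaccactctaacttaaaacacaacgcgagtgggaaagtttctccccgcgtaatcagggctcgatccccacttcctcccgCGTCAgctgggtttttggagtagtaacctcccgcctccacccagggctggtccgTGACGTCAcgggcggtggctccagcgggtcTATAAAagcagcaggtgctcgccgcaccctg
Btc: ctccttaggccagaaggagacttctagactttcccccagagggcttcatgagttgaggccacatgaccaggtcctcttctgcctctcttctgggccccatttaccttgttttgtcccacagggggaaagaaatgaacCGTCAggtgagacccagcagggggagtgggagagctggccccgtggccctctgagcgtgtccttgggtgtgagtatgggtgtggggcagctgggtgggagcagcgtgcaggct
The Areg run held the full element from position -61 and a TATA box from position -31, counted from the start site, as well as another half-site at position -115. The full element overlaps 2 half-sites of its own. The Btc run held neither and had 1 half-site, at position -113. Among 32851 RefSeq promoter runs of this length, 1.55% held the full element, 17.8% the half-site, 12.4% the TATA box and 4.46% the AP-1 letters TGACTCA, which were in none of the runs of Areg, Btc, Egf, Tgfa, Egfr and Erbb2. These are matches of letters, not shown binding, and whether they have a part in the responses was not tested.

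In control lungs, Hbegf was the most abundant member at 33.5 ± 1.97 TPM (SD, n = 4) and Ereg the least abundant at 0.399 ± 0.181 TPM. Between them came Erbb3 (17.7 TPM), Tgfa (11.5 TPM), Erbb2 (10.9 TPM), Areg (5.77 TPM), Egfr (5.39 TPM), Nrg1 (4.17 TPM), Btc (2.27 TPM) and Egf (0.582 TPM). The ranges of the neighbours Tgfa and Erbb2, of Areg, Egfr and Nrg1 in sequence, and of Egf and Ereg overlapped in this order. In WT bleomycin lungs Hbegf was still first at 69.4 ± 8.02 TPM (SD, n = 5), Areg came second at 26.8 TPM and Ereg eighth at 4.97 TPM, above Btc and Egf. There, neighbours overlapped from Erbb3 (14.7 TPM) through Erbb2 (12.8 TPM), Nrg1 (9.22 TPM) and Egfr (7.77 TPM) to Tgfa (7.28 TPM). In CB1R KO bleomycin lungs Ereg was ninth at 1.75 ± 0.512 TPM (SD, n = 4), below Btc at 2.65 TPM with no overlap of their ranges. Hbegf (61.9 TPM), Areg (24.0 TPM), Erbb3 (16.2 TPM) and Erbb2 (12.7 TPM) came first there, and the ranges of Areg and Erbb3 overlapped.

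**Figure D1:**
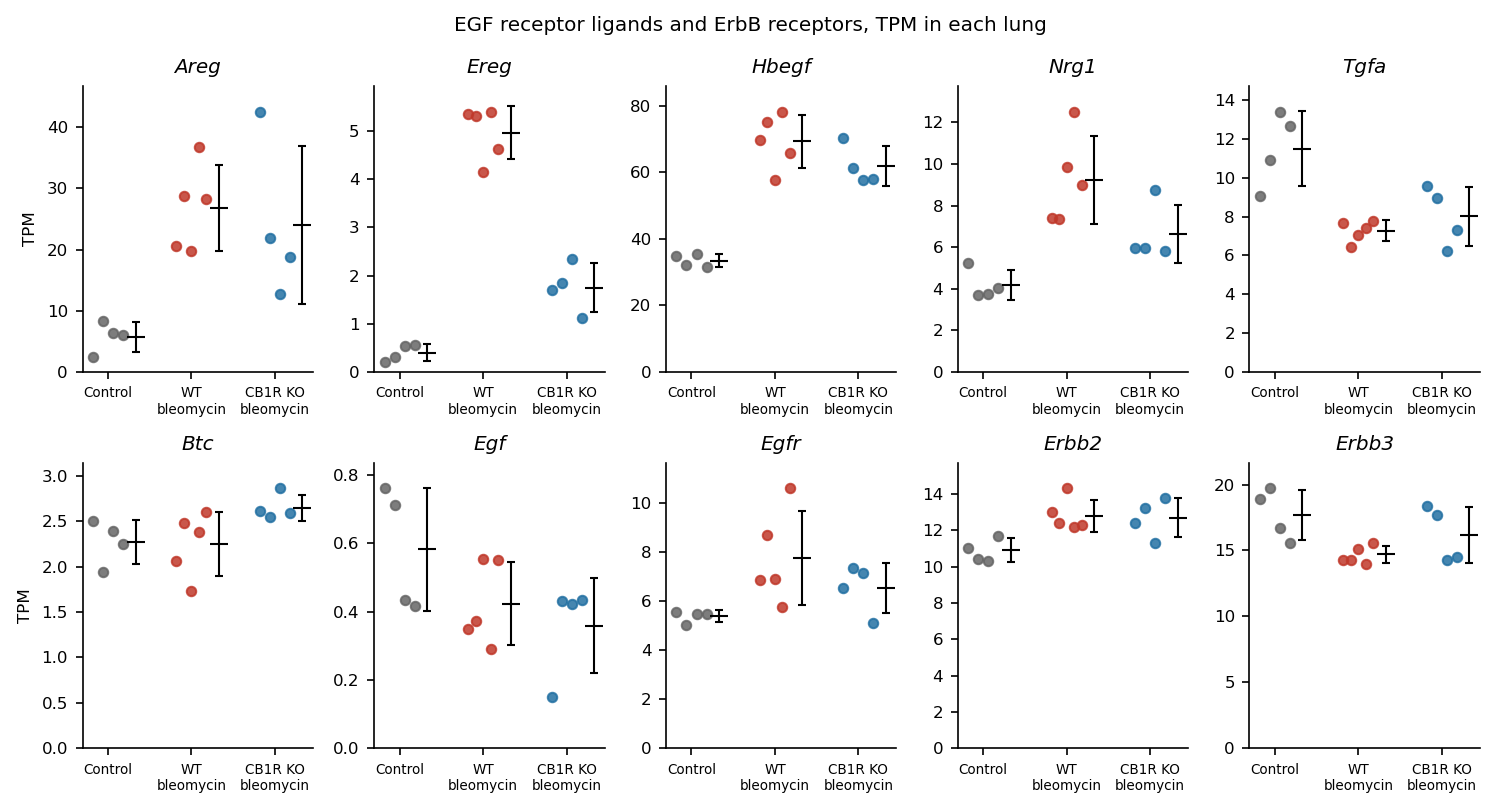
TPM (y axis, from 0, a separate scale for each gene) of the 10 members in 4 control, 5 WT bleomycin and 4 CB1R KO bleomycin lungs; each point is 1 lung, and the bar beside each group is its mean ± SD. Ereg lies between 4.16 and 5.4 TPM in WT bleomycin lungs and between 1.11 and 2.35 TPM in CB1R KO lungs, with no overlap.

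Bleomycin-treated WT lungs were compared with control lungs to show how the family responded to injury. Of the 10 members, 8 passed the test, against 48.9% of the 15315 genes tested. The 6 that rose (25.0% of all genes rose) were the ligands Ereg, Areg, Nrg1 and Hbegf and the receptors Egfr and Erbb2, and the 2 that fell (23.9% of all genes fell) were Tgfa and Erbb3. The median log2 fold change was 0.28 over the members and 1.02 over the 7 ligands, beside -0.01 over all genes tested. Fold changes were fitted on estimated counts and can depart from ratios of mean TPM.

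Ereg, a ligand that is low in the resting lung, was at 0.195, 0.298, 0.546 and 0.556 TPM in control mice 3, 21, 24 and 26. It was at 5.35, 5.32, 4.16, 5.4 and 4.64 TPM in WT bleomycin mice 4, 2, 5, 4-B2 and 7. All 5 treated lungs lay above all 4 controls, and the controls rested on only 9 to 25 counts. The fitted rise was 12.1-fold (log2 3.60 ± 0.28 (SE), edgeR adjusted p = 3.25e-07), with a 95% interval of 7.95 to 18.5-fold. Areg, the ligand encoded beside it, was at 2.43, 8.34, 6.27 and 6.04 TPM in the controls in the same order. In WT bleomycin lungs Areg was at 20.5, 28.8, 19.8, 36.8 and 28.3 TPM. The groups did not overlap, and mouse 3 was the lowest and mouse 4-B2 the highest. Areg rose 4.54-fold (log2 2.18 ± 0.37, adjusted p = 0.000212), with an interval of 2.64 to 7.82-fold.

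Nrg1, the ligand of ErbB3, was at 3.69 to 5.25 TPM in control lungs and at 7.38, 7.37, 9.86, 12.5 and 8.99 TPM in WT bleomycin lungs. It rose 2.44-fold (log2 1.29 ± 0.16, adjusted p = 1.45e-05). Hbegf was at 31.5 to 35.6 TPM in control lungs and at 57.8 to 78.2 TPM in WT bleomycin lungs. Its 2.02-fold rise had the smallest standard error of the ligands (log2 1.02 ± 0.09, adjusted p = 6.35e-07). Tgfa, which like Areg signals through the EGF receptor, moved the other way. It was at 9.06, 10.9, 13.4 and 12.7 TPM in the controls and at 7.68, 6.46, 7.07, 7.41 and 7.76 TPM in WT bleomycin lungs, again without overlap, and fell by 0.67 on the log2 scale (SE 0.13, adjusted p = 0.000747). Btc, the third gene of the chromosome 5 cluster among the members, was at 1.94 to 2.5 TPM in control and 1.73 to 2.6 TPM in WT bleomycin lungs. Its log2 fold change was -0.05 (95% interval -0.37 to 0.27, adjusted p = 0.798). Egf, the founding ligand of the family, was below 1 TPM in every lung, and its log2 fold change of -0.38 had a wide interval (-1.1 to 0.34).

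**Figure D2:**
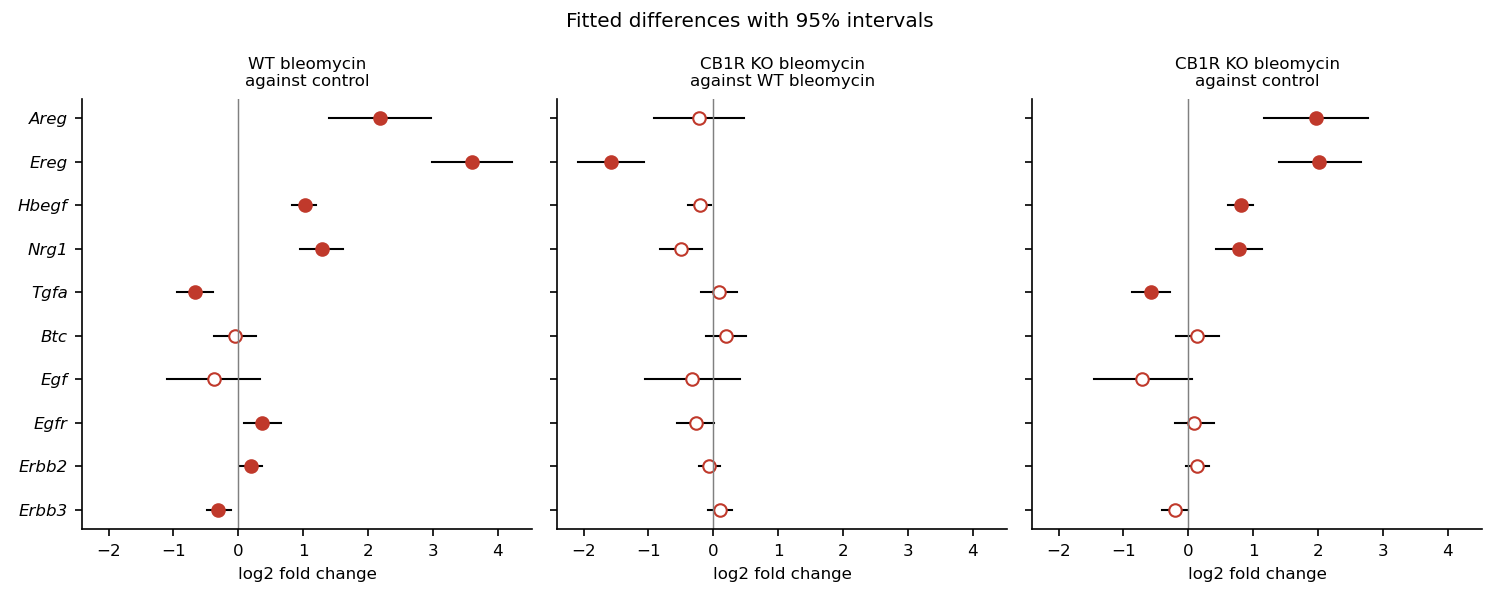
Fitted log2 fold change (x axis, 1 scale for the 3 panels) of each member in the 3 comparisons, with 95% intervals as lines; filled points passed an edgeR adjusted p of 0.05. In WT bleomycin against control 8 points are filled, in CB1R KO against WT bleomycin only that of Ereg, at -1.58, and in CB1R KO bleomycin against control 5.

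The receptors moved less than the raised ligands, which were picked by their rise in this same comparison, but more than Btc (log2 -0.05). Egfr was at 5.04 to 5.56 TPM in control lungs and at 6.87, 8.7, 6.89, 5.77 and 10.6 TPM in WT bleomycin lungs. All 5 treated lungs were above the controls, with mouse 7 highest, and the fitted rise was 1.29-fold (log2 0.37 ± 0.13, adjusted p = 0.0361). Its call was lost without any of control mice 21 (0.0977), 24 (0.0592) and 26 (0.0722) or WT bleomycin mice 2 (0.0552) and 7 (0.0924), values being edgeR adjusted p, while limma on log2(TPM + 0.1) gave a log2 fold change of 0.49. Sample labels were written in 2 styles, whose meaning is not given. The Egfr call was also lost with label style as a term (0.0538) and among the 10 libraries with lower-case labels alone, where its log2 fold change was 0.27 (0.182). Erbb2 was at 10.3 to 11.7 TPM in control and 12.2 to 14.3 TPM in WT bleomycin lungs, and rose 1.15-fold (log2 0.20 ± 0.08, adjusted p = 0.0446). This call was close to the threshold as well: it was lost without control mouse 3 (0.0808), 21 (0.109) or 24 (0.117) and without WT bleomycin mouse 4 (0.0551), 5 (0.1), 4-B2 (0.0565) or 7 (0.0511). It was also lost with upper-quartile scaling (0.0578), with no count filter (0.0642), with label style as a term (0.0575) and with DESeq2 on all libraries (0.0552). Erbb3 was at 18.9, 19.7, 16.7 and 15.6 TPM in control lungs and at 14.0 to 15.6 TPM in WT bleomycin lungs, overlapping in 1 pair of mice. It fell by 0.31 on the log2 scale (SE 0.09, adjusted p = 0.00905). With Egfr higher and Erbb3 lower, the ratio of Erbb3 to Egfr in TPM was 3.3 ± 0.464 (SD, n = 4) in control and 1.96 ± 0.399 (n = 5) in WT bleomycin lungs, without overlap (2.85 to 3.91 against 1.47 to 2.43). In CB1R KO bleomycin lungs it was 2.51 ± 0.396 (n = 4), and its range of 2.01 to 2.84 overlapped that of WT bleomycin lungs. The ratio restates the changes of these 2 genes and is not separate evidence.

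Summed over the 7 ligands, transcripts amounted to 58.2 ± 3.03 TPM (SD, n = 4) in control lungs and 120.0 ± 15.6 TPM (n = 5) in WT bleomycin lungs. Hbegf made up 57.6% and 57.8% of that sum, so its share was about the same while the sum was larger. The share of Areg was 9.86% in control and 22.0% in WT bleomycin lungs, that of Ereg 0.678% and 4.15%, and that of Tgfa 19.7% and 6.13%. In CB1R KO bleomycin lungs the sum ranged from 91.1 to 133.0 TPM (n = 4), and Hbegf made up 59.4%, Areg 21.8%, Tgfa 7.62% and Ereg 1.71%.

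**Figure D3:**
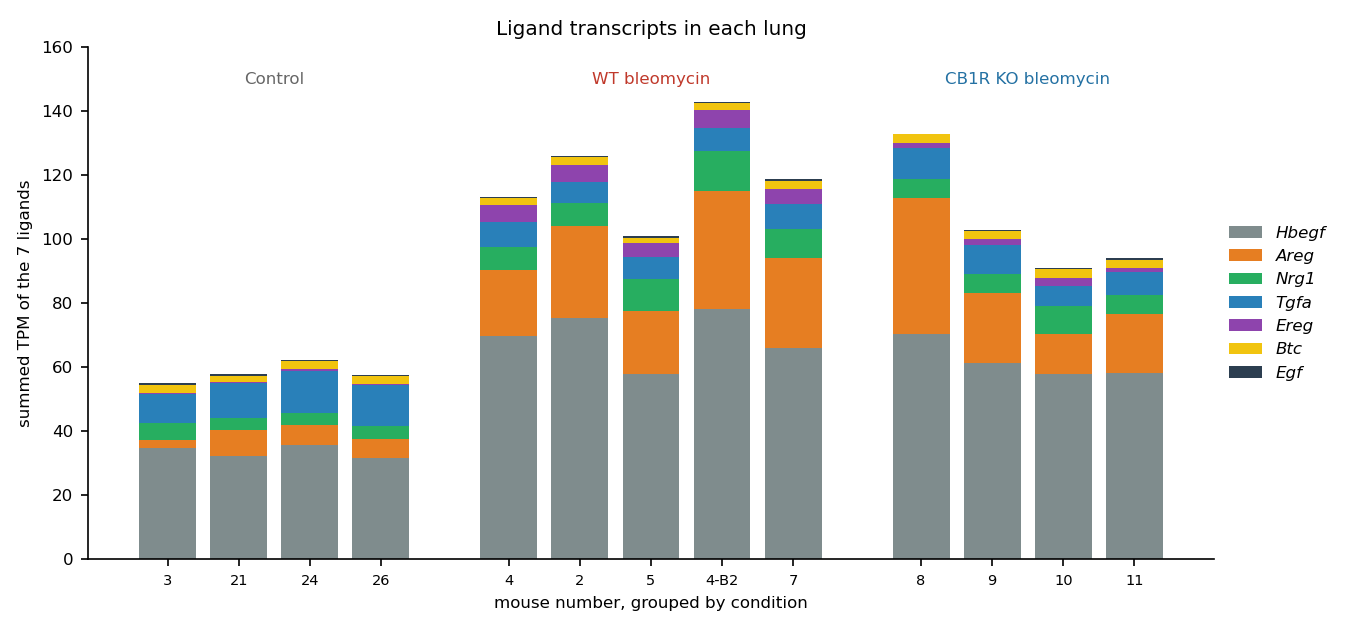
Summed TPM of the 7 ligands (y axis, from 0) in each of the 13 lungs (x axis, mouse numbers by group), with 1 colour for each ligand. Control lungs sum to between 55.0 and 62.3 TPM, WT bleomycin lungs to between 101.0 and 143.0 TPM and CB1R KO bleomycin lungs to between 91.1 and 133.0 TPM; the Ereg band is thinner in the CB1R KO lungs than in the WT bleomycin lungs.

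CB1R KO bleomycin lungs were compared with WT bleomycin lungs to show what the family did when CB1R was missing. Ereg was the 1 member of 10 that passed the test, where 0.979% of all genes tested were called, 0.359% higher and 0.620% lower. It was at 1.69, 1.84, 2.35 and 1.11 TPM in CB1R KO mice 8, 9, 10 and 11, and every one of these lay below the lowest WT bleomycin lung (4.16 TPM). Ereg was 2.98-fold lower (log2 -1.58 ± 0.24 (SE), edgeR adjusted p = 0.0177), with an interval of -2.09 to -1.07 on the log2 scale. The direction was the same with each library left out, but the call was lost without CB1R KO mouse 8 (adjusted p = 0.0679), 9 (0.0663) or 11 (0.0521). Thinning the deep library of mouse 11 gave -1.56 (adjusted p = 0.0207). Among lower-case labels alone, the log2 fold change was -1.54 and missed the threshold (adjusted p = 0.0954), and with label style as a term it was -1.48 (adjusted p = 0.0457).

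Areg was not called in this comparison. It was at 42.5, 21.9, 12.7 and 18.7 TPM in CB1R KO mice 8, 9, 10 and 11, with mouse 8 above and mice 10 and 11 below every WT bleomycin lung. The log2 fold change was -0.22 ± 0.32 (adjusted p = 0.77), and its interval of -0.91 to 0.47 leaves room for a change of moderate size in either direction. The log2 ratio of Ereg to each of the other raised ligands is given as a description with no test, since Ereg was singled out by its own values. On average it was lower in CB1R KO than in WT bleomycin lungs by 1.37 for Hbegf, 1.08 for Nrg1 and 1.27 for Areg. The ranges of the ratio to Areg overlapped (-2.67 to -0.47 in CB1R KO and -0.81 to 0.01 in WT bleomycin lungs).

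Nrg1 was at 5.95, 5.98, 8.74 and 5.82 TPM in CB1R KO lungs, with mouse 10 inside the range of WT bleomycin lungs and the other 3 below it. Its log2 fold change was -0.50 ± 0.15 (interval -0.82 to -0.18), and it did not pass adjustment over all genes (adjusted p = 0.119), although it did without mouse 10 (0.0293) and with DESeq2 on all libraries (0.0422). Hbegf was at 57.8 to 70.4 TPM, with a log2 fold change of -0.21 (-0.39 to -0.03, adjusted p = 0.228). Intervals of the log2 fold change were -0.19 to 0.37 for Tgfa, -0.12 to 0.51 for Btc and -1.06 to 0.41 for Egf. Among the receptors they were -0.56 to 0.01 for Egfr, -0.22 to 0.11 for Erbb2 and -0.09 to 0.29 for Erbb3. A change of any of these receptors as large as that of Ereg lay outside its interval.

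Compared with control lungs, which also served the first comparison, CB1R KO bleomycin lungs had 5 of 10 members called, against 35.4% of all genes (19.0% higher and 16.3% lower). Areg (3.9-fold), Ereg (4.06-fold), Hbegf (1.75-fold) and Nrg1 (1.72-fold) were higher in these lungs, with edgeR adjusted p of 0.00115, 0.000151, 1.81e-05 and 0.00213. All 4 CB1R KO lungs were above every control for each of these ligands. Tgfa was lower by log2 -0.58 ± 0.14 (adjusted p = 0.00495), with CB1R KO mouse 8 (9.56 TPM) inside the control range. No receptor was called here: the log2 fold change was 0.09 for Egfr, 0.14 for Erbb2 and -0.21 for Erbb3 (adjusted p = 0.641, 0.185 and 0.0893), and that of Erbb3 passed without CB1R KO mouse 8 (0.0452).

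The rest of the pathway was described with 64 genes in 5 lists, of which 62 were tested. The lists were chosen with earlier results of these data known, so their shares beside those of all genes are only a description. In WT bleomycin against control lungs 26 rose and 14 fell, where 48.9% of all genes tested were called, 25.0% higher and 23.9% lower. Of the other family members, the ErbB3 and ErbB4 ligand Nrg2 fell from 6.05 to 3.17 TPM (log2 -0.94, adjusted p = 0.000353) and Erbb4 fell by 2.50 on the log2 scale (adjusted p = 0.000888, but 0.0602 with limma on log2(TPM + 1)). Erbb4 was at most 0.189 TPM in any lung, the lowest of the 4 receptors. Nrg4 had wide error (log2 -0.70 ± 1.1), and Epgn, which lies beside Ereg, and Nrg3 were too low to test, with at most 6 and 3 counts in a library. Among 10 genes of ligand shedding, 7 rose, beside 25.0% of all genes, and none fell (median log2 0.60, beside -0.01 over all genes). They included the proteases Adam9 (1.66-fold, from edgeR, adjusted p = 1.32e-07), Adam10 (1.47-fold, 3.36e-06) and Adam12 (6.3-fold, 4.11e-06).

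Of 13 genes that restrain or turn over the receptors, 3 rose and 2 fell (median log2 0.03). Over all genes 48.9% were called, 25.0% higher and 23.9% lower, and the list lay near these shares. The ubiquitin ligases Rnf41 (log2 0.38) and Cblc (log2 0.41) rose (adjusted p = 0.000683 and 0.0123), the latter not among lower-case labels alone (0.14). Errfi1, an inhibitor that binds the EGF receptor kinase, fell by 0.90 (adjusted p = 0.0249), but it ranged from 93.1 to 315.0 TPM among control lungs and its call was lost without control mouse 24 (0.0621) or 26 (0.129) or WT bleomycin mouse 2 (0.0593). It was also lost among lower-case labels alone (0.151) and with limma on log2(TPM + 1) (0.063) or log2(TPM + 0.1) (0.0623). Socs5 (log2 0.23) and Socs4 (log2 -0.16) belong to the suppressors of cytokine signalling. The call of Socs5 was lost without control mouse 3, 21 or 26 or WT bleomycin mouse 4, 5 or 7 (adjusted p from 0.0529 to 0.126), and that of Socs4 without control mouse 21 or 24 or WT bleomycin mouse 5, 4-B2 or 7 (0.0614 to 0.108). Both were also lost among lower-case labels alone (0.0658 and 0.0955) and with limma on log2(TPM + 1) (0.0571 and 0.244) or log2(TPM + 0.1) (0.0568 and 0.238). Of 20 adaptors and kinases, 6 rose, among them Shc1 (log2 0.52), Nras (log2 0.35) and Gab2 (log2 0.22), and 6 fell, among them Gab1 (log2 -0.62), Sos2 (log2 -0.44) and Plcg1 (log2 -0.38). These counts lay near the shares over all genes, 25.0% higher and 23.9% lower, and Gab2 was not called among lower-case labels alone (adjusted p = 0.0522).

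Among 16 targets and feedback genes of ERK signalling, 10 rose and 4 fell (median log2 0.54), beside 25.0% and 23.9% of all genes. The transcription factor genes Etv4 and Myc rose by log2 4.33 and 1.66, and the cell cycle gene Ccnd1 by log2 0.88 (adjusted p = 1.28e-06, 6.82e-07 and 4.84e-07). Etv4 was at 0.213 TPM in control and 4.31 TPM in WT bleomycin lungs. Etv5 (log2 -0.68), Spry2 (log2 -0.40) and Spry1 (log2 -0.26) fell, so the list did not move in 1 direction, and Spry1 was not called without control mouse 3 (adjusted p = 0.0799), among lower-case labels alone (0.061) or with limma on log2(TPM + 1) (0.0734) or log2(TPM + 0.1) (0.0737).

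**Figure D4:**
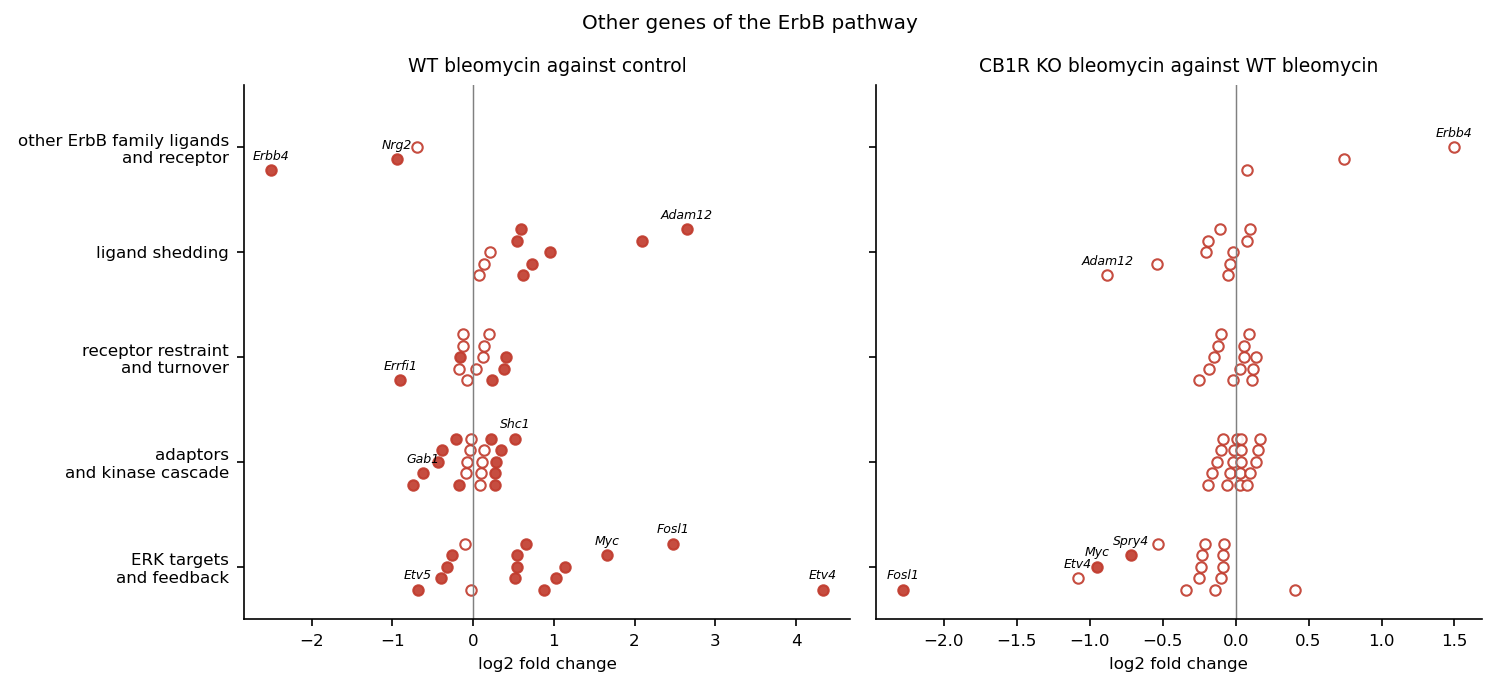
Fitted log2 fold change (x axis, a separate scale for each panel) of the 62 tested genes in the 5 pathway lists (y axis; points are spread vertically for legibility), in WT bleomycin against control and CB1R KO against WT bleomycin; filled points passed an edgeR adjusted p of 0.05. On the right 3 points are filled, all in the list of ERK targets and feedback and all below 0.

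Between CB1R KO and WT bleomycin lungs, 3 of the 62 genes were called, all lower and all in the list of ERK targets and feedback, whose median log2 fold change was -0.23 beside 0.0 over all genes. Over all genes 0.979% were called, 0.359% higher and 0.620% lower. Myc was at 15.5, 12.6, 16.1 and 13.5 TPM in CB1R KO lungs and at 24.2, 19.7, 29.0, 27.9 and 30.3 TPM in WT bleomycin lungs. Its groups did not overlap, and it was 1.93-fold lower (adjusted p = 0.0177). Fosl1, a subunit of the AP-1 transcription factor, was 4.85-fold lower (adjusted p = 0.0186) at 0.234 to 0.399 TPM against 0.841 to 2.04 TPM, from at most 7 counts in a CB1R KO library. Spry4, a feedback inhibitor of the pathway, was 1.65-fold lower (adjusted p = 0.0235) at 18.8, 15.8, 15.2 and 11.98 TPM against 18.5 to 30.0 TPM, with mouse 8 inside the WT range. Each of these calls was lost without CB1R KO mouse 9 or 11, with adjusted p of 0.0663 and 0.0521 for Myc, 0.0756 and 0.0705 for Fosl1, and 0.0801 and 0.0752 for Spry4, and that of Spry4 also without WT bleomycin mouse 5 (0.0613). Among lower-case labels alone Myc (0.0954) and Fosl1 (0.119) were not called, and Spry4 was not called with limma on log2(TPM + 1) (0.0549) or log2(TPM + 0.1) (0.0581). Etv5, of the same list, was at 73.9, 65.9, 55.0 and 53.9 TPM in CB1R KO lungs and at 40.7 to 50.9 TPM in WT bleomycin lungs. Its groups did not overlap, but its log2 fold change of 0.41 ± 0.11 did not pass (adjusted p = 0.082). Shc1 and Adam9 (both log2 -0.19) and Dusp4 (log2 -0.23) were lower without overlap and did not pass either (edgeR adjusted p = 0.0572, 0.0805 and 0.297). How many of all genes tested lacked overlap was not counted.

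Markers of several cell types moved with these values. Of the 4 markers of transitional epithelium, a state of injured alveoli, 3 rose in WT bleomycin lungs and 1 was called lower in CB1R KO than in WT bleomycin lungs. Their summed TPM was 311.0 to 364.0 in control, 540.0 to 716.0 in WT bleomycin and 459.0 to 553.0 in CB1R KO lungs. The 4 markers of monocyte-derived macrophages had median sums of 115.0, 928.0 and 682.0 TPM in the same order (518.0 to 939.0 TPM in CB1R KO lungs, reaching into the WT bleomycin range of 868.0 to 943.0 TPM), and all 4 of them rose in WT bleomycin lungs. For the 4 fibroblast markers the ranges were 401.0 to 449.0, 1139 to 1647 and 779.0 to 1322 TPM. The collagen genes Col1a1 (median 60.1 TPM in control and 542.0 TPM in WT bleomycin lungs) and Col1a2 (119.0 and 676.0 TPM) were the 2 of these that rose, while Pdgfra was at a median of 88.1 and 79.1 TPM and Dcn at 151.0 and 172.0 TPM. The summed TPM of the 5 type II cell markers was lower in WT bleomycin (18588 to 22156) than in control lungs (31111 to 36440), and 4 of the 5 fell. Sftpc made up most of the control sum (median 28714 TPM). Abca3 overlapped, at 102.0 to 154.0 TPM in control and 94.5 to 127.0 TPM in WT bleomycin lungs. In CB1R KO lungs the sum was 23201 to 36481 TPM, and 3 of the 5 were higher than in WT bleomycin lungs. All 3 club cell markers fell in WT bleomycin lungs, with median sums of 89891, 49061 and 43142 TPM in the 3 groups. All 4 endothelial markers fell as well (1398, 1084 and 1206 TPM), as did 3 of 4 neutrophil markers (870.0, 256.0 and 371.0 TPM). The neutrophil sums were spread widely in control lungs (297.0 to 1650 TPM). They overlapped those of WT bleomycin (192.0 to 393.0 TPM) and CB1R KO lungs (233.0 to 517.0 TPM). None of the club cell, endothelial and neutrophil lists had a call between CB1R KO and WT bleomycin lungs. The 4 cardiac muscle markers were at 535.0 to 1303, 98.7 to 390.0 and 386.0 to 678.0 TPM. The 4 adipocyte markers were at 25.8 to 80.4, 5.95 to 28.4 and 13.5 to 53.7 TPM. Markers of mast cells and basophils and of group 2 innate lymphoid cells, which are known sources of Areg, summed to at most 14.7 and 12.4 TPM in any lung, with ranges that overlapped among the 3 groups. Among 3 tested markers of mast cells and basophils, 1 fell and none rose in WT bleomycin lungs. The innate lymphoid cell sum held genes that moved in opposite directions. Of 3 tested innate lymphoid cell markers, the receptor genes Il1rl1 (log2 0.81, adjusted p = 0.00123) and Il17rb (log2 0.92, 0.00783) rose in WT bleomycin lungs, while Gata3, which encodes a transcription factor, fell by 1.15 on the log2 scale (0.00259). Il1rl1 was at 1.64 to 2.91 TPM in control, 3.91 to 5.71 TPM in WT bleomycin and 3.65 to 6.58 TPM in CB1R KO lungs. No marker of these lists was at 0 in all lungs. The part of any of these cells in the values of Ereg, Areg and the other members was not tested.

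By pattern over the 13 libraries, genes most like Ereg included Megf11 (Pearson r = 0.982) and Tnfrsf12a (0.978) in log2 CPM, counts scaled to the library total. After group means were removed these values were 0.707 and 0.844. The genes most like Areg were Scarb2 (0.96), Ctsl (0.959) and Pdpn (0.941), with 0.83, 0.813 and 0.754 after group means were removed. Eif1a, Ei24 and Cd44 were most like Hbegf (0.982, 0.98 and 0.979), and Ptpn1, Cd80 and Syngr2 most like Nrg1 (0.981, 0.976 and 0.975). With group means removed, these were 0.769, 0.717 and 0.721 for Hbegf and 0.864, 0.813 and 0.81 for Nrg1. Sec14l3, Tmod1 and Ppl were most like Tgfa (0.974, 0.974 and 0.972), and kept values of 0.919, 0.963 and 0.931 within groups. For Egfr the first was Gab2 (0.941), an adaptor of the same pathway, followed by Mical2 (0.865) and Tead3 (0.859). For Erbb2 they were Nfs1, Pycrl and Sf3b5 (0.892, 0.864 and 0.864), for Erbb3 Dyrk1b, Prkag3 and Zfp385b (0.951, 0.936 and 0.934), for Btc Gpr162, Ntn3 and Vmn2r26 (0.884, 0.869 and 0.864), and for Egf Phldb3, Setd6 and Glcci1 (0.88, 0.847 and 0.836). Within groups, values in the same order were 0.948, 0.783 and 0.823 for Egfr and 0.892, 0.766 and 0.75 for Erbb2. They were 0.93, 0.876 and 0.88 for Erbb3, 0.853, 0.867 and 0.859 for Btc, and 0.861, 0.807 and 0.766 for Egf. All these genes were picked as the highest of 15315, so high values arise in part from the picking.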

How the data were processed

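Poly(A) RNA of 13 mouse lungs (4 control, 5 WT bleomycin and 4 CB1R KO bleomycin) was sequenced by the authors from NEBNext Ultra II libraries and quantified with kallisto against Ensembl release 105 (GRCm39). The authors deposited estimated counts and TPM, both summed over the protein-coding transcripts of each of 20270 genes. The 13 single-sample tables, whose values are of other kinds in 1 column, repeated both series tables, and 1 TPM column that matches no sample was not used. As 64.8% of count values were not whole, they were rounded.

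A count filter (filterByExpr) left 15315 genes. All 13 libraries entered 1 edgeR fit (version 4.0.16 in R 4.3.3, quasi-likelihood, TMM scaling) with a coefficient for each of the 3 groups, and p-values were adjusted over all genes by the method of Benjamini and Hochberg, with a threshold of 0.05. Standard errors and 95% intervals were derived from the F statistic. The members and the lists of pathway genes and markers were chosen with earlier results of these data known. All members were named, with at most 3 called genes of each pathway list in each direction by lowest p, the whole list of other family members, and the 3 genes most correlated with each member in log2 CPM (prior count 2), of which 1 is not reported here. The code was tested on simulated data. Replicates were taken as separate mice. The labels of WT bleomycin lungs 4 and 4-B2 share a number, and the meaning of B2 is not given. Promoter letters came from the RefSeq table of GRCm38.p6, which had entries for Areg, Btc, Egf, Tgfa, Egfr and Erbb2 and differs from the authors' build. Alternatives were other filters, RLE and upper-quartile scaling, DESeq2 1.42.0, limma 3.58.1 on log2(TPM + 1) and log2(TPM + 0.1), fits of 2 groups, the style of the sample label, thinning, and leaving out each library.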

Additional observations from a re-analysis of the deposited data

Results flagged for a closer look

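In groups of 4 or 5 lungs, the 10 members and the total counts were searched for a lung whose gap to its neighbour took up most of the group's range (Dixon's 95% limit), and 3 of 33 groups held one, where chance gives about 1 in 20. Egf in CB1R KO mouse 8 was at 0.149 TPM, against 0.422 to 0.434 TPM in the other 3 lungs of that group. Nrg1 in CB1R KO mouse 10 was at 8.74 TPM, against 5.82 to 5.98 TPM in the other 3. The library of CB1R KO mouse 11 held 53463884 estimated counts, against 15252571 to 16605421 in the other 3. None of the 3 involved Ereg.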

How the results depend on the processing

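Each count was repeated under 25 alternatives. In WT bleomycin against control, 6 to 8 members and 31 to 41 pathway genes were called. In CB1R KO bleomycin against control, 4 to 6 members and 23 to 30 pathway genes were called. In CB1R KO against WT bleomycin, 1 member was called, but 0 when at least 10 counts were required in every library, a filter that removes Ereg, and 0 among libraries with lower-case labels alone, which leave 3 lungs in the control and WT bleomycin groups (Ereg log2 fold change -1.54, adjusted p = 0.0954). It was 2, with Nrg1, under DESeq2 on all libraries. Leaving out 1 library at a time gave 0 to 2 members and 0 to 8 pathway genes, where the full set gave 3. DESeq2 called 9 pathway genes on all libraries and 9 on 2 groups, and the lower-case labels alone gave 1. Ereg was lower in CB1R KO lungs in all 24 alternatives that tested it, with log2 fold changes of -1.76 to -1.13 and adjusted p of 1.81e-11 to 0.0954. All 4 CB1R KO labels are lower-case. Among values that did not pass the test, Areg in CB1R KO against WT bleomycin was 0.0308 with lower-case labels alone, Nrg4 in WT bleomycin against control 0.0352 with the same libraries, and Btc there ranged from -0.1218 to 0.0323 with 1 library left out, being above 0 without WT bleomycin replicate 5. The cause was not tested. For the ratios of Ereg, added after the data were seen, log2(TPM + 0.1) or leaving out a library kept the direction. No paired analysis was possible because the groups share no replicate numbers. With 9 to 25 counts of Ereg in control libraries and 5 to 57 of Egf in CB1R KO libraries, small changes of these genes were not detectable at this depth.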
